A study of Mus musculus with 48 samples.

Results

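Mouse pancreatic ductal adenocarcinoma (mPDAC) cells were treated or not with N6L, a pseudopeptide that binds nucleolin, and the mRNAs of the mitochondrial genome were followed in the cytoplasmic lysate and in polysomes. The members were 10 protein-coding genes of mitochondrial DNA (mtDNA), named beforehand by their symbols: mt-Nd1, mt-Nd2, mt-Nd4, mt-Nd5, mt-Nd6, mt-Cytb, mt-Co1, mt-Co2, mt-Co3 and mt-Atp6. They are 10 of the 13 protein-coding genes and of the 37 mitochondrial genes among the 50600 genes listed. They were chosen by their cytoplasmic counts with and without N6L as well as by their genome, so those values are given here as a description, without a test. Of the 10, 8 had at least 1 count and 7 passed the filter on low counts that left 13889 genes for testing.

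The data came from 1 mouse cell line, labelled as of FVB/N x C57BL6 genetic background and of 8-week-old age. Control cultures 1, 2 and 4 were non-treated (NT), and cultures 1, 2 and 3 received 50 µM N6L for 48 h. Both a cytoplasmic and a polysomal library were made from every culture, and all cells were incubated with emetine, an inhibitor of translation elongation, before lysis. The study removed nuclei and mitochondria from the lysate by centrifugation, took an aliquot as the cytoplasmic fraction and loaded the rest onto a sucrose gradient, from which the polysomal fractions were pooled. mRNA was then selected with oligo(dT). The labels number the samples without saying that they were grown independently, so the p-values measure the spread between these samples.

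The 12 libraries, each the sum of 4 technical replicates, held 19519911 to 44972333 counts. For 3 replicates of N6L culture 2 cytoplasm the labels disagreed on the culture number. They matched the other replicate of culture 2 within sampling noise (a chi-square of 1.01 to 1.04 per degree of freedom, against 11.2 to 11.4 for culture 1) and were kept with it. The epithelial keratins Krt8, Krt18 and Krt19 were abundant in every library (Krt8 at 2036 CPM, the counts scaled to library size, or more). Sox9 (18.3 to 66.7 CPM) and Cdh1 (61.0 to 147.6 CPM) were present at much lower levels, and the epithelial marker Epcam stayed at or under 0.301 CPM. Mean Sox9 was higher with N6L, at 30.6 CPM in NT and 65.1 in N6L cytoplasm, and at 25.0 and 52.8 CPM in polysomes. Markers of blood, endothelial, stromal, acinar and endocrine cells summed to 0.736 to 1.38 CPM, with Cpa1, Ins2 and Gcg at 0.

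Mammalian mtDNA is a small circle that is transcribed from both strands into long polycistronic RNAs by the polymerase Polrmt with the factors Tfam and Tefm. The tRNAs between the genes are cut out, and the released mRNAs are polyadenylated by Mtpap, stabilised by the Lrpprc and Slirp complex and translated inside the organelle by mitochondrial ribosomes. The proteins they encode are core subunits of complexes I (the Nd genes), III (mt-Cytb), IV (the Co genes) and V (the Atp genes) of oxidative phosphorylation. They are assembled with a larger number of subunits that are encoded in the nucleus and imported. Pieces of mtDNA have also been copied into nuclear chromosomes during evolution, and a read from a mitochondrial mRNA can then match the genome at more than one place.

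Such copies are the first feature of the members to be read, because 3 of the 10 had essentially no counts. mt-Co2 (subunit 2 of cytochrome c oxidase, which receives the electrons of cytochrome c) had 1 count in all 12 libraries. mt-Co3 (subunit 3 of the same enzyme) and mt-Atp6 (the membrane subunit of the ATP synthase through which protons pass) were listed at 0 in every library. A count of 0 allows up to 3 counts, or 0.0667 to 0.154 CPM depending on the library, and covers counting error only. The other listed mt mRNAs that are not members, mt-Nd3, mt-Nd4l and mt-Atp8, were likewise at 0.

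Each of these 3 members had an annotated pseudogene with the same sequence in a block of 7 annotated copies of mitochondrial genes on chromosome 1 (chr1:24611535-24616197, 4663 nt, GRCm38, the sequence of mm10). Gm28661 matched mt-Co2 over 681 nt, Gm28437 matched mt-Co3 over 783 nt and Gm10925 matched mt-Atp6 over 678 nt, each at 100% identity. Gm28439 matched the first 876 of the 1378 nt of mt-Nd4 at 100%, and Gm29216 matched the last 483 of the 1545 nt of mt-Co1 at 99.79%, with 1 differing base. The following 30-base windows show what the counting step had to assign. The first 4 are the starts of the mRNAs, and their pseudogenes hold the same 30 bases. The last pair is the window of mt-Co1 with its differing base in capitals. All are from the plus strand of GRCm38 chrM (GENCODE vM21 transcripts), except that of Gm29216, which is given along its transcript.
mt-Co2 (chrM:7013-7042): atggcctacccattccaacttggtctacaa
mt-Co3 (chrM:8607-8636): atgacccaccaaactcatgcatatcacata
mt-Atp6 (chrM:7927-7956): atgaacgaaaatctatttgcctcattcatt
mt-Nd4 (chrM:10167-10196): atgctaaaaattattcttccctcactaatg
mt-Co1 (chrM:6390-6419): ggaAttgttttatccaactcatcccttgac
Gm29216, copy of mt-Co1: ggaTttgttttatccaactcatcccttgac

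The share of each mRNA that is identical to an annotated nuclear transcript ran parallel to which members were counted. Of all 50-base windows, 100% were shared in mt-Co2, 99.9% in mt-Co3 and 99.5% in mt-Atp6, against 62.2% in mt-Nd4 and 51.1% in mt-Co1. The shares were 8.19% in mt-Nd2 and 7.61% in mt-Nd5, and no shared window was found in mt-Nd1, mt-Nd6 or mt-Cytb. The search did not cover the transcripts of every nuclear chromosome, so all these shares are lower limits. mt-Nd3 (98%) and mt-Nd4l (98.8%), both without counts, were also shared almost throughout. mt-Atp8 was at 0, and no copy of at least 100 nt was found among the transcripts searched. In mtDNA it follows mt-Co2 and its end (chrM:7766-7969) overlaps the start of mt-Atp6 (chrM:7927-8607). This overlap is part of the sequence matched by Gm10925 but is shorter than a 50-base window. The unannotated interval between Gm10925 and Gm28661 in the block was 233 nt long. The pseudogenes themselves collected few counts over the 12 libraries, 7 for Gm28661, 1 each for Gm28437 and Gm10925, 2 for Gm28439 and 34 for Gm29216. How reads with more than one match were treated is not given in the sources used here, and the part of the shared sequence in the missing counts was not tested. The 3 members without counts therefore carry no information on N6L, and mt-Nd4 and mt-Co1 may be represented by only a piece of their length.

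**Figure D1:**
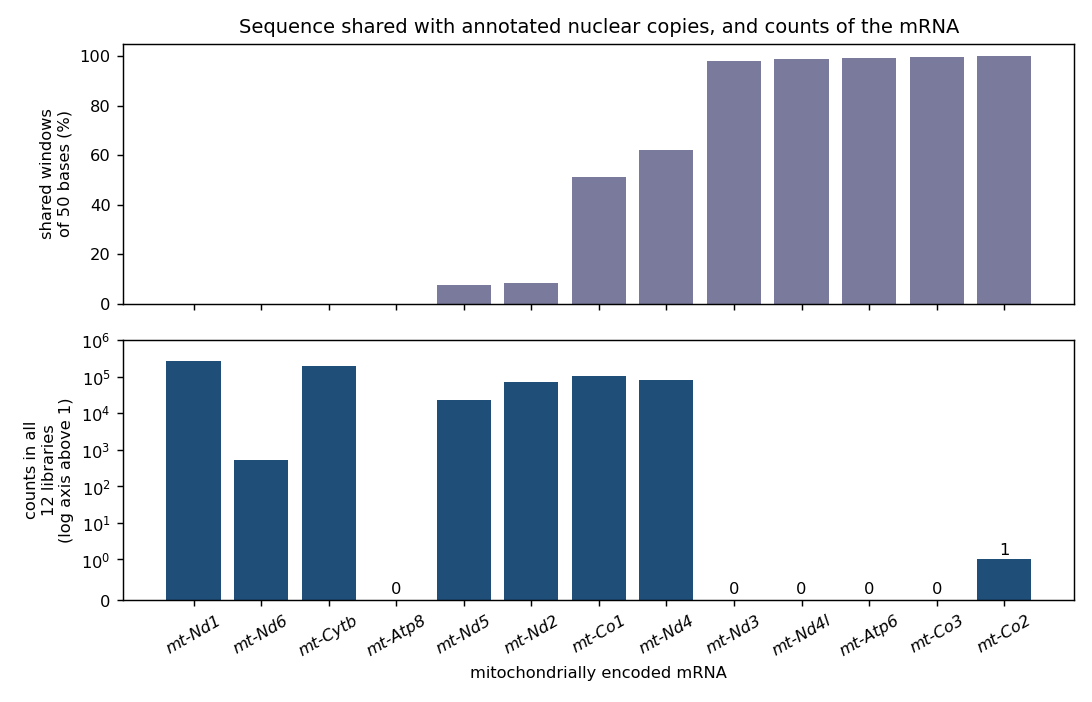
Top, percent of 50-base windows of each of the 13 mitochondrially encoded mRNAs found identically in the annotated nuclear transcripts searched, which did not cover every chromosome. Bottom, counts in all 12 libraries together (log axis above 1, linear below). The mRNAs with 98% or more of their windows shared had 0 or 1 count, and mt-Atp8 had 0 counts with no shared window found.

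A second overlap concerned mt-Nd6, the only member on the minus strand. Its annotated 3′ end overlaps that of mt-Nd5 by 14 nt (chrM:13552-13565), shown in capitals in the plus-strand sequence around it.
mt-Nd5 end and mt-Nd6 overlap (chrM:13536-13565): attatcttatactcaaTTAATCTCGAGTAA
The library kit keeps the strand, but no source used here gives the strand setting of the counting, and reads of the overlap could belong to either gene. Among the 7 counted members mt-Nd6 had the fewest counts, 541 over the 12 libraries against 22801 for mt-Nd5 and 277514 for mt-Nd1. In human cells the ND6 mRNA is known to lack a stable poly(A) tail. The part of the oligo(dT) selection, the strand or the gene length in the low count was not tested.

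Levels were compared between members per kb of the sequence not covered by a near-identical copy among the transcripts searched. This was 502 nt for mt-Nd4, 1062 nt for mt-Co1 and the whole transcript for the others. For mt-Nd4 and mt-Co1 it assumes that no read of the covered part was counted, which was not tested. Their values per kb would be lower with the whole length of 1378 or 1545 nt, and their places in the order depend on this assumption. In the NT cytoplasm mt-Nd1, a core membrane subunit of complex I, was the highest with 2933 ± 1219 CPM per kb (SD, n = 3). mt-Nd4, another membrane subunit of complex I, followed with 1565 ± 829 CPM per kb, and mt-Cytb, the cytochrome of complex III, with 1418 ± 589 CPM per kb. mt-Nd2 and mt-Co1 were at 653 ± 298 and 635 ± 140 CPM per kb. mt-Nd5, which encodes the distal proton-pumping subunit of complex I, was at 83.6 ± 15.6 and mt-Nd6 at 9.08 ± 0.628 CPM per kb. The ranges of neighbours overlapped from mt-Nd1 through mt-Nd4 and mt-Cytb to mt-Nd2 and mt-Co1, while those of mt-Nd5 and mt-Nd6 lay below all the others and apart from each other.

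In N6L cytoplasm the order was headed by mt-Nd1 (427 ± 186 CPM per kb), mt-Cytb (354 ± 99.4) and mt-Co1 (296 ± 115), whose ranges overlapped. The places of mt-Co1 here and of mt-Nd4 below rest on the same untested assumption. In polysomes mt-Cytb was the highest per kb both in NT (273 ± 119) and in N6L cultures (87.9 ± 41.4), with ranges that overlapped those of the next in order, mt-Nd1 in NT (183 ± 87.6 CPM per kb) and mt-Nd4 in N6L cultures (67.7 ± 29.1 CPM per kb).

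The first comparison was that of N6L with NT in the cytoplasm, the one that entered the choice of the members. All 7 counted members were lower in each N6L culture than in any NT culture, 25.6% of all genes tested showing the same separation. By the edgeR limit (false discovery rate, FDR, under 0.05) 5 of the 7 and 13.8% of all genes were lower, and 28.3% of all genes passed in either direction. The median log2 fold change was -2.58 over the 7 members and 0.04 over all genes. These counts restate the choice and carry no test.

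Among the complex I mRNAs, mt-Nd1 stood at 3339, 1469 and 3613 CPM in NT cultures 1, 2 and 4 and at 581, 421 and 225 CPM in N6L cultures 1, 2 and 3. NT culture 2 was well below the other controls and still lay above every N6L culture. The fitted log2 fold change of mt-Nd1 was -2.78 (standard error, SE, 0.48), a 6.87-fold lower level. mt-Nd2, which encodes another membrane subunit of complex I, went from 816, 324 and 894 CPM to 140, 80.4 and 52.3 CPM (log2 -2.90, SE 0.52). Its cultures had the same order as for mt-Nd1 in both treatments. mt-Nd4 was at 717, 408 and 1232 CPM in NT and at 179, 123 and 92.8 CPM in N6L cultures (log2 -2.58, SE 0.48).

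mt-Nd5 differed less, with 159, 121 and 177 CPM in NT and 84.8, 79.0 and 51.9 CPM in N6L cultures (log2 -1.09, SE 0.42). As a ratio, the gap between its lowest control and its highest treated culture was the narrowest of the complex I mRNAs. mt-Nd6 was at 4.79, 4.99 and 4.36 CPM in NT and at 0.588, 0.464 and 0.653 CPM in N6L cultures (log2 -3.05, SE 0.55). Of the 7 counted members it was the least abundant and had the smallest spread relative to its mean, resting on 87 to 157 counts a library in NT and 15 to 26 in N6L cytoplasm.

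For complex III, mt-Cytb was at 1598, 961 and 2307 CPM in NT and at 520, 403 and 293 CPM in N6L cultures (log2 -2.001, SE 0.43). mt-Co1, the catalytic subunit of complex IV, was at 834, 541 and 649 CPM in NT and at 433, 321 and 190 CPM in N6L cultures (log2 -1.10, SE 0.41). In each member but mt-Nd6 the order of the treated cultures was the same, with culture 1 the highest and culture 3 the lowest.

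**Figure D2:**
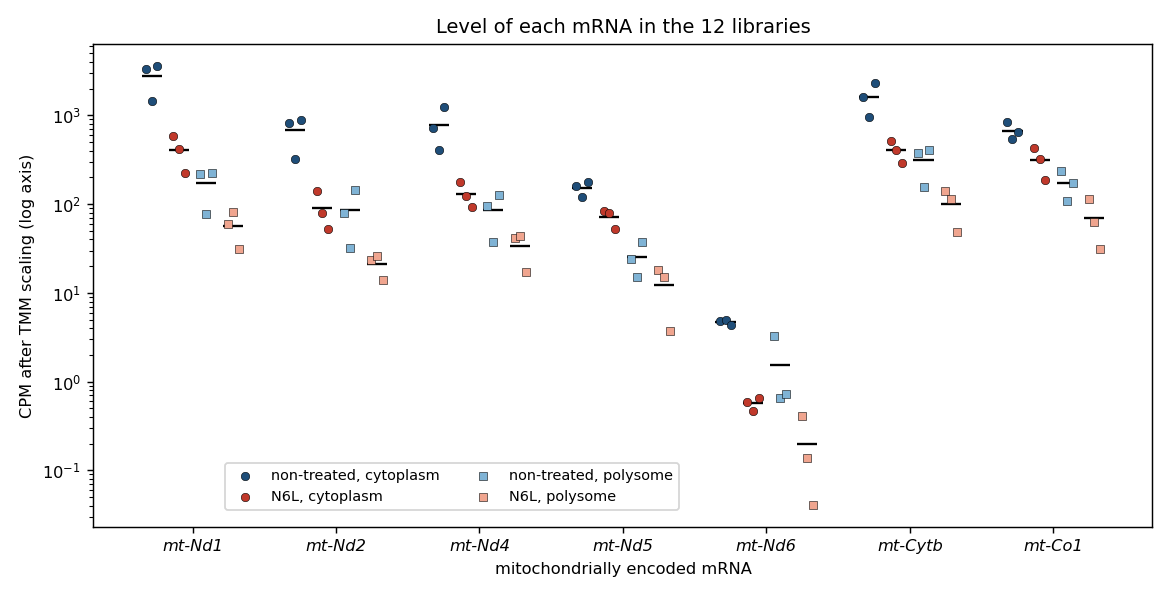
CPM after TMM scaling (log axis) of the 7 counted members in the 12 libraries, 3 points per group, with the group mean as a bar. In the cytoplasm (circles) every N6L point lies below every non-treated point, and in polysomes (squares) this holds for mt-Nd2, mt-Nd6 and mt-Cytb.

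The differences in the cytoplasm did not follow the order of the genes along mtDNA. From the start of the heavy-strand transcript the log2 values were -2.78 (mt-Nd1), -2.90 (mt-Nd2), -1.10 (mt-Co1), -2.58 (mt-Nd4), -1.09 (mt-Nd5) and -2.001 (mt-Cytb), and mt-Nd6 from the other strand was at -3.05. The smallest and the largest of these lay next to each other on opposite strands.

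Because the members differed by unequal amounts, their make-up shifted. mt-Nd1 took 44.7, 38.4 and 40.7% of the member counts in NT cytoplasm and 29.97, 29.5 and 24.9% in N6L cytoplasm. mt-Co1 took 11.2, 14.1 and 7.31% in NT and 22.3, 22.5 and 20.9% in N6L cytoplasm. The ratio of mt-Nd1 to mt-Co1 counts was accordingly 4.002, 2.72 and 5.57 in NT and 1.34, 1.31 and 1.19 in N6L cytoplasm, without overlap. This ratio is taken within a library and does not depend on the scaling. In polysomes the same ratio was 0.928, 0.713 and 1.29 in NT and 0.512, 1.29 and 0.997 in N6L cultures, and the groups overlapped. In both treatments the polysomal make-up thus had less mt-Nd1 than the NT cytoplasm (18.2 to 21.3% in NT and 14.8 to 23.8% in N6L polysomes), and mt-Cytb took the largest share, 36.2 to 36.4% in NT and 33.0 to 35.3% in N6L polysomes.

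**Figure D3:**
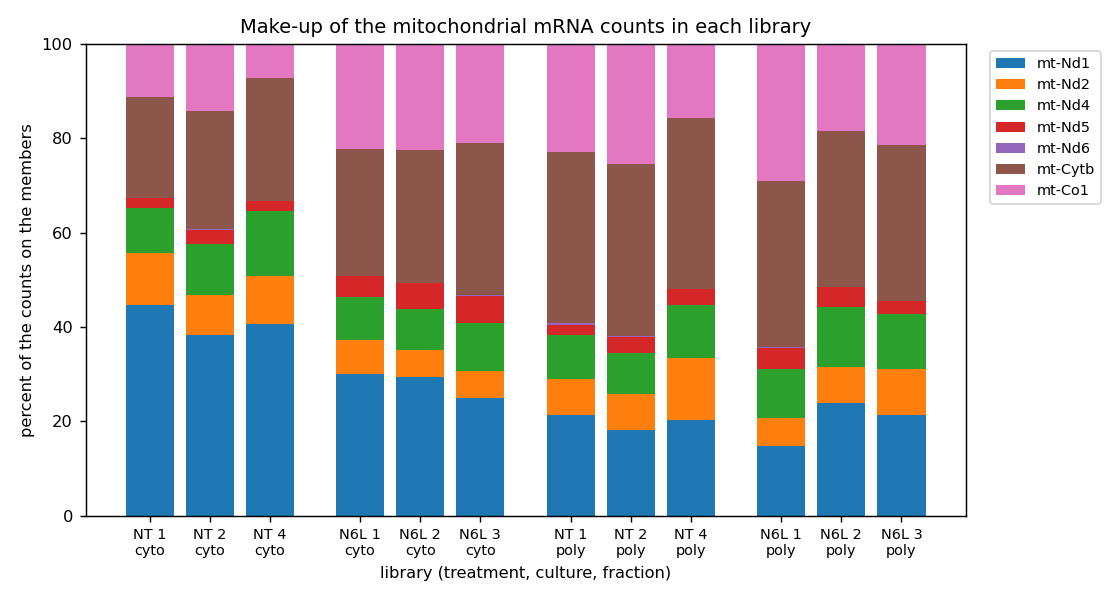
Percent of the counts on the members taken by each of the 7 counted mRNAs, 1 bar for each of the 12 libraries (treatment, culture and fraction under the bar). The mt-Nd1 part is 38.4 to 44.7% in the 3 NT cytoplasmic libraries and at most 29.97% in the other 9, and the mt-Nd6 part is too thin to see in most bars.

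All members together made up 0.749, 0.388 and 0.837% of the counts in NT cytoplasm and 0.210, 0.157 and 0.0983% in N6L cytoplasm. Since mitochondria were spun out of the lysate, fewer mitochondria or less leaked mitochondrial RNA in the lysate and less of these mRNAs per mitochondrion cannot be told apart. RNAs that are retained in the nucleus (Malat1, Neat1, Xist, Kcnq1ot1, Tsix and Meg3) summed to 86.3 to 137 CPM in NT and 206 to 237 CPM in N6L cytoplasm. Of these 6, 4 were tested, and 1 of them, Neat1, rose (log2 2.01, SE 0.26, edgeR FDR 0.000697), against 14.5% of all genes called higher. Its mean went from 38.0 to 153 CPM, while Malat1 was at 58.2 and 63.8 CPM. The part of the separation step in the levels of the members was not tested.

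The N6L comparison in polysomes was tested, on other libraries than the cytoplasmic ones behind the choice of the members. These libraries came from the same cultures and lysates, however, and the test is no independent evidence of the direction. Here 4 of the 7 members fell (edgeR's quasi-likelihood test, FDR under 0.05), against 3.66% of all genes tested that were lower, 6.01% that were higher and 9.67% called in either direction. The median log2 fold change was -1.61 over the 7 members and 0.00 (0.000807) over all genes. The members that fell were mt-Nd1, mt-Nd2, mt-Nd6 and mt-Cytb. None of the 7 was higher on average.

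mt-Nd1 was at 220, 78.0 and 226 CPM in NT and 59.1, 81.6 and 31.0 CPM in N6L polysomes, a fall by 1.61 on the log2 scale (SE 0.46, edgeR FDR 0.0435). NT culture 2 lay between N6L cultures 1 and 2, so the groups overlapped. mt-Nd2 was at 79.3, 32.1 and 146 CPM in NT and 23.4, 26.1 and 14.1 CPM in N6L polysomes (log2 -2.02, SE 0.51, edgeR FDR 0.0262), without overlap. mt-Cytb was at 376, 156 and 404 CPM in NT and 140, 113 and 48.2 CPM in N6L polysomes (log2 -1.63, SE 0.42, edgeR FDR 0.0287), also without overlap.

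mt-Nd6 had the lowest polysomal counts, 61, 20 and 24 in NT and 13, 4 and 1 in N6L polysomes, or 3.24, 0.655 and 0.723 CPM against 0.415, 0.139 and 0.0409 CPM. Its groups did not overlap, but NT culture 1 stood far above the other controls (log2 -2.77, SE 0.67, edgeR FDR 0.0218). Among the 7 members 3 did not overlap, compared with 11.9% of all genes that were lower without overlap.

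The other 3 members did not pass the limit. mt-Nd4 was at 96.5, 37.4 and 126 CPM in NT and 41.3, 43.6 and 17.2 CPM in N6L polysomes (log2 -1.35, SE 0.47, edgeR FDR 0.0831). mt-Nd5 was at 23.9, 14.97 and 37.4 CPM in NT and 18.1, 14.96 and 3.76 CPM in N6L polysomes (log2 -1.05, SE 0.43, edgeR FDR 0.140). mt-Co1 was at 237, 109 and 175 CPM in NT and 115, 63.3 and 31.0 CPM in N6L polysomes (log2 -1.31, SE 0.41, edgeR FDR 0.0586). In all 3 the lowest control, NT culture 2, lay below the highest treated culture.

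The polysomal calls rested on few libraries. Without NT culture 1, N6L culture 2 or N6L culture 3, 0 of the 7 members passed, without NT culture 4 1 did, and without NT culture 2 or N6L culture 1 there were 5 and 4. Over all genes the number called lower in polysomes moved with the same settings, from 508 to 46 without NT culture 1, 17 without N6L culture 2, 410 without N6L culture 3, 148 without NT culture 4, 374 without NT culture 2 and 695 without N6L culture 1. Fitting only the 6 polysomal libraries left 1 member and 70 genes called lower, while the log2 fold changes stayed negative for all 7 members in each of these fits.

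**Figure D4:**
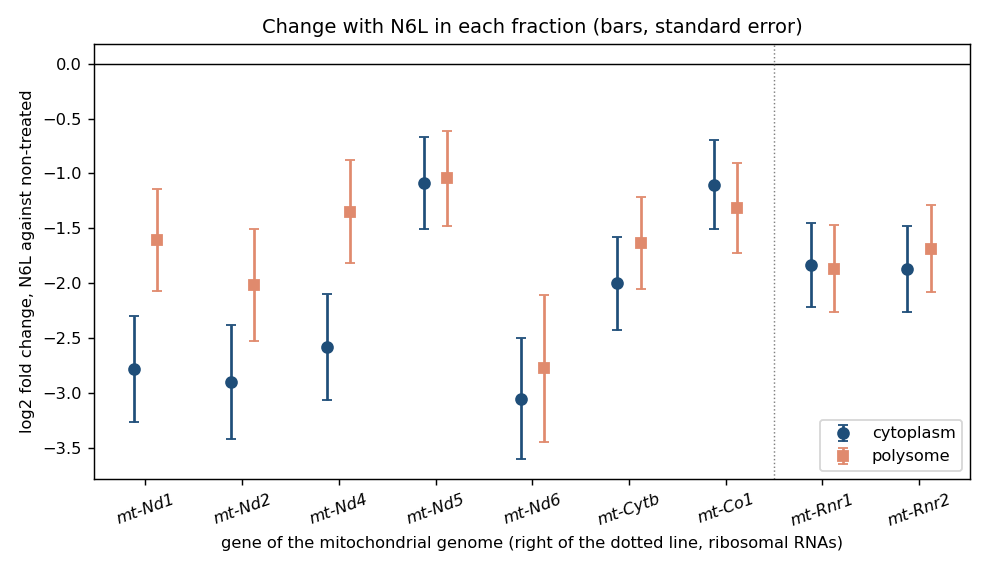
Log2 fold change of N6L against non-treated cultures for the 7 counted members and, right of the dotted line, the 2 mitochondrial ribosomal RNAs, in cytoplasm (circles) and polysomes (squares), with the standard error of the fit. All 18 values are below 0. For mt-Nd1, mt-Nd2 and mt-Nd4 the cytoplasmic difference was the larger one by 0.89 to 1.23, and for mt-Nd5 and mt-Co1 the fractions differed by 0.04 and 0.21.

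The third question was how the members were distributed between polysomes and cytoplasm. Cytosolic polysomes do not translate mitochondrial mRNAs, so these values describe mitochondrial RNA found in the polysomal part of the gradient. The comparison shares the cytoplasmic libraries with the choice of the members and is given without a test. In NT cultures all 7 members were lower in polysomes than in cytoplasm without overlap, and the median log2 ratio was -2.58 against 0.03 over all genes. The background of genes called lower in NT polysomes was 0.209% (edgeR FDR under 0.05), and that of genes lower without overlap was 12.8%. The called share depends on the fit, which did not use the pairing of the fractions. It was 29 of 13889 genes here, 196 with the culture as a block and 268 with DESeq2. When NT culture 4 was left out, 0 of 14032 genes were called lower. In N6L cultures the 7 members were again lower without overlap, with a median of -2.10 against 0.03 over all genes and a background of 20.6% of genes called lower (39.0% in either direction) and 28.5% lower without overlap.

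Within single cultures the log2 ratio of polysomal to cytoplasmic CPM of mt-Nd1 was -3.92, -4.23 and -3.998 in NT and -3.30, -2.37 and -2.86 in N6L cultures. That of mt-Co1 was -1.81, -2.30 and -1.89 in NT and -1.91, -2.34 and -2.61 in N6L cultures. mt-Nd1 was therefore the member furthest from the polysomal fraction in NT cultures, and its ratio was closer to 0 in each N6L culture. The same held for mt-Nd4 (-2.89, -3.45 and -3.29 in NT, -2.12, -1.49 and -2.43 in N6L cultures). It held narrowly for mt-Nd2 (-3.36, -3.33 and -2.61 in NT, -2.57, -1.62 and -1.89 in N6L cultures). The ratios of mt-Co1, mt-Nd5 and mt-Nd6 overlapped between the treatments. mt-Cytb was at -2.09, -2.62 and -2.51 in NT and at -1.89, -1.83 and -2.60 in N6L cultures, which overlapped as well.

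The study's translational index (TI) compares the polysome-to-cytoplasm ratio of treated with that of non-treated cells. As a log2 contrast it was highest for mt-Nd4 (1.23, SE 0.65) and mt-Nd1 (1.17, SE 0.64), followed by mt-Nd2 (0.89), mt-Cytb (0.37), mt-Nd6 (0.28), mt-Nd5 (0.04) and mt-Co1 (-0.21). The median was 0.37, against 0.01 over all genes. Of the 13889 genes, 0 passed the edgeR limit for the TI (0.00%), 1074 had an unadjusted p under 0.05, and DESeq2 called 0.

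Other genes of mtDNA were measured in the same libraries. Of the 27 that are not members, 4 passed the filter, the ribosomal RNAs mt-Rnr1 and mt-Rnr2 and the tRNAs mt-Tw and mt-Tt. Both tRNAs were near the floor, with 211 (mt-Tw) and 205 (mt-Tt) counts over the 12 libraries and at most 1 count in any N6L polysomal library. By the edgeR limit 4 of the 4 were lower in the cytoplasm (median log2 -2.20, 13.8% of all genes lower). In polysomes 2 of the 4 fell (3.66%). The fall of mitochondrially encoded genes in the cytoplasm was known when the members were chosen. The cytoplasmic values of these genes are therefore a description and no independent evidence, and the polysomal libraries came from the same lysates. mt-Rnr1, the RNA of the small mitochondrial ribosomal subunit, was lower by 1.84 in cytoplasm (SE 0.38) and fell by 1.87 in polysomes (SE 0.40, edgeR FDR 0.012). mt-Rnr2, that of the large subunit, was lower by 1.87 in cytoplasm (SE 0.39) and fell by 1.68 in polysomes (SE 0.39, edgeR FDR 0.019). The decreases of the rRNAs thus lay between those of mt-Nd1 and mt-Co1 in the cytoplasm. Without NT culture 1 or N6L culture 2 the polysomal count was 0 of 4, and without N6L culture 3 it was 1.

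The rRNAs took 10.3, 14.5 and 13.3% of all mitochondrial counts in NT cytoplasm and 13.2, 16.7 and 18.8% in N6L cytoplasm, ranges that overlapped. Mitochondrial rRNAs carry short A tails at most, and their level per kb here was below that of most members, 246 ± 85.2 CPM per kb for mt-Rnr1 and 455 ± 183 for mt-Rnr2 in NT cytoplasm.

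The nuclear genes that express mtDNA were read from 3 lists, and their calls also moved when a culture was left out. In the same fits the number of all genes called lower in cytoplasm, 1922 with all cultures, was 1483, 732 and 1893 without N6L cultures 1, 2 and 3 and 1198, 1628 and 1195 without NT cultures 1, 2 and 4. Of 17 genes of mitochondrial transcription and DNA maintenance, all tested, 4 fell and 0 rose in cytoplasm and 2 fell and 0 rose in polysomes (backgrounds of 13.8% and 3.66% lower). The median log2 was -0.30 in cytoplasm and -0.32 in polysomes. Ssbp1, which coats single-stranded mtDNA, fell by 0.65 and 0.70 (SE 0.17 each, edgeR FDR 0.0144 and 0.0239). Top1mt, the mitochondrial topoisomerase, fell by 0.59 in cytoplasm (SE 0.17, edgeR FDR 0.022) and Mgme1, a nuclease of mtDNA replication, by 0.58 in polysomes (SE 0.15, edgeR FDR 0.0243). Tfam, which packages mtDNA and starts its transcription, was at 81.4, 74.5 and 77.3 CPM in NT and 55.3, 56.1 and 56.8 CPM in N6L cytoplasm. It fell by 0.47 there (SE 0.15, edgeR FDR 0.0278), and its polysomal log2 of -0.48 missed the limit (edgeR FDR 0.0505). Polrmt had a log2 of -0.30 (edgeR FDR 0.226) and -0.16 (edgeR FDR 0.62), and Tefm, the elongation factor, one of -0.41 (edgeR FDR 0.0575) and -0.33 (edgeR FDR 0.18). The cytoplasmic count was 2 without N6L culture 1 or NT culture 1, 1 without NT culture 4 and 0 without N6L culture 2. The polysomal count was 0 without N6L culture 2, NT culture 1 or NT culture 4 and 1 without N6L culture 3 or NT culture 2.

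Of 22 genes of mitochondrial RNA processing, stability and polyadenylation, 3 fell and 1 rose in cytoplasm (13.8% and 14.5% of all genes). In polysomes 1 fell (3.66% of all genes). The median log2 was 0.00 (0.00252) in cytoplasm and -0.11 in polysomes. Slirp, the RNA-binding partner of Lrpprc, fell by 0.97 in cytoplasm (SE 0.20, edgeR FDR 0.00442) and by 0.68 in polysomes (SE 0.20, edgeR FDR 0.0424). Rexo2, which degrades very short RNAs, fell by 0.88 (SE 0.19, edgeR FDR 0.00535). Ptcd3, a pentatricopeptide protein of the small mitochondrial ribosomal subunit, rose by 0.70 (SE 0.23, edgeR FDR 0.037). Lrpprc had a log2 of 0.18 (edgeR FDR 0.644) and -0.41 (edgeR FDR 0.361), and Mtpap one of -0.09 (edgeR FDR 0.742) and -0.23 (edgeR FDR 0.481). The cytoplasmic count of 4 was 2 without any one of NT cultures 1, 2 and 4 or N6L culture 2, and 6 without N6L culture 3, and the polysomal call was lost without N6L culture 1 or 2 or NT culture 1 or 4.

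Of 18 mitochondrial translation factors and translational activators, 4 fell in cytoplasm and 1 in polysomes, and 0 rose (median log2 -0.06 and -0.10). That is 22.2% and 5.56% of the list, against backgrounds of 13.8% and 3.66% of all genes lower. Cox14, which acts with the translation and assembly of the mt-Co1 protein, fell by 0.97 in cytoplasm (SE 0.27, edgeR FDR 0.0184) and Tsfm, an elongation factor, by 0.80 (SE 0.17, edgeR FDR 0.0048). Letm1, an inner membrane protein, fell by 0.61 in polysomes (SE 0.15, edgeR FDR 0.0217). Without N6L culture 2 the cytoplasmic count was 1, and the polysomal call was lost without that culture or without any NT culture.

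The proteins of the members are assembled with nuclear-encoded subunits, and 70 of these were tested. In cytoplasm 48 of the 70 fell and 0 rose, 68.6% against a background of 13.8%, with a median log2 of -0.85. By complex, 26 of 36 subunits of complex I, 6 of 9 of complex III, 8 of 10 of complex IV and 8 of 15 of complex V fell, with medians of -0.89, -0.78, -0.94 and -0.73. In polysomes 1 of the 70 fell (1.43%, background 3.66%) and the median was -0.28. Oxidative phosphorylation is among the pathways of the mRNAs whose translation the study found raised on these cultures, so these counts are no independent evidence. The median log2 TI was 0.52 for complex I, 0.57 for III, 0.66 for IV and 0.54 for V, against 0.01 over all genes. None of these subunits passed the edgeR limit for the TI.

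Uqcrq, a small subunit of complex III, had the largest cytoplasmic decrease of the list, from 484, 427 and 644 CPM in NT to 186, 185 and 207 CPM in N6L cultures (log2 -1.43, SE 0.25, edgeR FDR 0.00238). Ndufa5 of complex I followed, from 85.0, 74.6 and 158 CPM to 37.0, 47.9 and 45.6 CPM (log2 -1.28, SE 0.29, edgeR FDR 0.00727). Ndufs5, the polysomal call, was at most at 0.723 CPM in any library and is close to the filter (log2 -2.40, SE 0.71, edgeR FDR 0.0482). In polysomes Uqcrq had a log2 of -0.76 (edgeR FDR 0.068) and Ndufa5 one of -0.92 (edgeR FDR 0.0591). The cytoplasmic count was 16 without N6L culture 2, where 732 of 14019 genes were called lower in all, and 29 without NT culture 4, where 1195 of 14032 were. The polysomal count was 0 without N6L culture 2, NT culture 1 or NT culture 4, 4 without N6L culture 3 and 2 without NT culture 2. Side by side, the median log2 of the 7 members was -2.58 in cytoplasm and -1.61 in polysomes, and that of the 70 partner subunits -0.85 and -0.28.

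Across the 12 libraries the members varied together. On the log2 scale Pearson's r of a member with the mean of the other 6 was 0.996 for mt-Cytb, 0.985 for mt-Nd4, 0.982 for mt-Nd1, 0.971 for mt-Nd2, 0.963 for mt-Co1, 0.939 for mt-Nd5 and 0.858 for mt-Nd6. These values describe libraries that fall into 4 groups and share their scaling. Of 8948 genes outside mtDNA with a mean of at least 10 CPM, the 5 whose pattern was most like the mean of the members were Pura (0.956), Slc44a1 (0.946), Ppp4r1l-ps (0.945), Ndc1 (0.942) and Ankrd49 (0.941). Their group means fell in the order NT cytoplasm, N6L cytoplasm, NT polysomes and N6L polysomes, as did those of 6 of the 7 members, but over a much smaller span. Pura, a DNA- and RNA-binding protein, was at 52.5 ± 4.87 CPM in NT cytoplasm, 43.4 ± 2.16 in N6L cytoplasm, 40.3 ± 3.44 in NT polysomes and 34.4 ± 4.21 in N6L polysomes (SD, n = 3 each).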

How the data were processed

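Reads were aligned by the authors with STAR to mm10 and assigned to genes with HTSeq (version 0.5.3 in the submitters' processing notes, which also name bcl2fastq 2.18.0.12), and the deposited values are raw counts, not normalized, of 48 samples. No source used here gives the multiple-match or strand settings. The members and gene lists were chosen with earlier results of these data known, by symbol, and 50376 of the 50600 gene IDs matched GENCODE vM21. The 4 technical replicates of each library were summed, and the 12 libraries were filtered with filterByExpr, TMM-scaled and analysed in edgeR 4.0.16 (R 4.3.3, glmQLFit and glmQLFTest, 1 mean per treatment and fraction, no block), with Benjamini-Hochberg adjustment over 13889 genes and a limit of 0.05. CPM values are TMM-scaled and log2 CPM uses a prior count of 2. Alternatives were DESeq2 1.42.0, other scalings and filters, subsets of libraries and a block. Nuclear copies were found with BLAST 2.17.0 (at least 100 nt at 90% identity) among annotated transcripts, since the annotation names no parent gene. Neither this search nor that for shared windows covered the transcripts of every nuclear chromosome, and further copies may have been missed. Named genes were the 10 members, the 2 largest calls per list, direction and fraction, 6 fixed regulators and the 5 genes of most similar pattern. The fit was tested on simulated data.

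Cytoplasm and polysomes of one culture came from one lysate. The deviations of the paired libraries from their group means correlated at 0.364, 0.452 and 0.645 in NT and 0.0368, 0.199 and 0.229 in N6L cultures.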

Additional observations from a re-analysis of the deposited data

How the results depend on the processing

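All 7 counted members kept their direction in both N6L comparisons under all 17 settings tried, except that mt-Nd6 was not tested where at least 10 counts were required in every library. The number that fell in polysomes, 4 of 7, was 7 with no filter on low counts, 1 in a fit of the polysomal libraries alone, and 0 to 5 without single cultures. The median polysomal log2 of -1.61 ran from -1.96 to -1.30 without single cultures and was -1.03 with the replicate number as a block, the value closest to 0 of all settings. In cytoplasm the median of -2.58 ran from -2.89 to -2.13 without single cultures, and was -1.79 with the replicate number as a block. NT and N6L cultures share only the numbers 1 and 2, and their deviations correlated at 0.228 and 0.0455 in cytoplasm and 0.296 and 0.00756 in polysomes. Paired libraries from one lysate correlated at 0.0368 to 0.645. These values therefore cannot tell whether NT and N6L cultures of the same number share more than the number. With this block 4 members fell in polysomes, mt-Nd1 no longer (edgeR FDR 0.0865) and mt-Co1 now (edgeR FDR 0.00347). The median NT polysome-to-cytoplasm log2 of -2.58 was -2.88 to -2.45 without single cultures, and the median N6L one of -2.10 was -2.44 to -2.08. The median TI of 0.37 was 0.27 to 0.83. With the culture as a replicate block the medians were -2.66 for NT, -2.10 for N6L and 0.38 for the TI, and no direction of a median changed.

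Calls in the lists were less stable. For transcription genes 4 cytoplasmic calls became 2 with library size alone and 0 to 3 without single cultures, and the 2 polysomal calls became 4 with RLE size factors, DESeq2 or the replicate block, 1 with library size alone and 0 to 2 without single cultures. For RNA processing the 4 cytoplasmic calls became 7 with the block and 2 to 6 without single cultures, and the polysomal call became 0 with library size alone or the block, 3 with DESeq2 and 0 to 1 without single cultures. For translation factors the ranges were 1 to 4 and 0 to 1, with 2 polysomal calls by DESeq2. For partner subunits they were 16 to 45 and 0 to 4, with polysomal counts of 0 with library size alone and 4 with DESeq2 or the block. For the other mitochondrial genes the ranges were 4 to 4 and 0 to 3, and for nuclear-retained RNAs 1 to 1 in both fractions. The cause of these changes was not tested. Library size alone moved the median of all genes in cytoplasm from 0.04 to 0.19 and the share of higher among called genes from 51.2% to 65.5%, and in polysomes that share from 62.2% to 77.6%, while the median of the members in cytoplasm was -2.42. Adding the counts of the nuclear copies moved no median and no count of the members. Among the counted members this added only 34 counts to mt-Co1 and 2 to mt-Nd4. It therefore cannot show what became of reads with more than one match. Members with few counts, above all mt-Nd6, are limited by depth.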
